A study of Mus musculus with 6 samples.

Results

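Collagen chain genes were read in basal cells of the mouse esophageal epithelium that had been sorted by a Krt15 reporter. The set holds every row of the deposited table whose symbol has the form of a collagen chain (Col, a number, a, a number), without the hemidesmosomal collagen gene Col17a1. That left 43 of 24016 genes: 11 fibrillar chains, 6 of type IV, 6 of type VI, Col7a1, and 19 others (fibril-associated, transmembrane, multiplexin, network-forming and minor chains). All 6 libraries came from Krt15-CrePR1;R26mTomato/mGFP mice given 1 mg of RU486 and sampled 24 hours later. In these animals the Krt15 promoter drives a Cre that RU486 switches on, and a cell that recombines the reporter trades membrane Tomato for membrane GFP. Basal cells were taken as cells with high CD29 (integrin beta-1). Those with GFP, which the submitters call Krt15+, are named GFP-positive here (3 libraries), and those without it, called Krt15-, are named GFP-negative (3 libraries). A cell with an active Krt15 promoter that did not recombine stays in the GFP-negative gate. Neither the age nor the sex of the mice, nor whether each library came from its own animal, is given in the sources used here. Libraries of the same replicate number also share a sample identifier between the GFP-negative and GFP-positive gates, and whether it marks 1 mouse is not stated. P-values thus cover only the spread among these samples, and that spread may be technical.

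Collagens are trimers of chains wound into a triple helix, and the classes differ in where they lie and which cells make them. Fibrillar collagens (types I, III and V among them) form the banded fibrils of connective tissue and are made mainly by fibroblasts. Type IV collagen forms the sheet of basement membranes, type VI collagen forms beaded filaments beside them, and type VII collagen makes the anchoring fibrils that tie a stratified epithelium to the tissue below. Basal keratinocytes sit on that basement membrane and hold it through integrins, and they make some of its collagens themselves.

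The promoters of 4 members are printed because these genes stand for the main pattern: Col1a2, Col3a1 and Col5a1 were above 0 in every GFP-negative library and at or near 0 in every GFP-positive one, and Col4a5 went the opposite way. Each run is the 250 bases before the RefSeq start site, written 5′ to 3′ on the gene's strand in build GRCm38.p6. Capitals mark 3 motifs searched on both strands: the CCAAT box by its 5 letters, the TATA box as TATAAA and the GC box as GGGCGG. A motif on the other strand appears as its reverse complement.
Col1a2 promoter, chr6:4505368-4505617, plus strand: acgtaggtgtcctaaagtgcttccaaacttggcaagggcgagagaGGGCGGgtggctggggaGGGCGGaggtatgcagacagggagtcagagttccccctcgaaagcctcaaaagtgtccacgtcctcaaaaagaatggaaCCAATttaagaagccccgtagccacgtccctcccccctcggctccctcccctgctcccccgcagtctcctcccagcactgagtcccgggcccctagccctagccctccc
Col3a1 promoter, chr1:45311288-45311537, plus strand: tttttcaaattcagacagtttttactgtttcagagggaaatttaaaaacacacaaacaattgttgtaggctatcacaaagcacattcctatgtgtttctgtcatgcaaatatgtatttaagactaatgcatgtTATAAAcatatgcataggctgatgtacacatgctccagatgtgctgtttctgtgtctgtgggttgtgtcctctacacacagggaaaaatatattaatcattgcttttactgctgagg
Col5a1 promoter, chr2:27886175-27886424, plus strand: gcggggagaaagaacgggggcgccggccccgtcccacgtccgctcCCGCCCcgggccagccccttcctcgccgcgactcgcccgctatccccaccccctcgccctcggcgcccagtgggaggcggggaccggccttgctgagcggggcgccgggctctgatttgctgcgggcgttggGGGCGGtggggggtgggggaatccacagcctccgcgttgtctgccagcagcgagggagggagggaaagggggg
Col4a5 promoter, chrX:141475169-141475418, plus strand: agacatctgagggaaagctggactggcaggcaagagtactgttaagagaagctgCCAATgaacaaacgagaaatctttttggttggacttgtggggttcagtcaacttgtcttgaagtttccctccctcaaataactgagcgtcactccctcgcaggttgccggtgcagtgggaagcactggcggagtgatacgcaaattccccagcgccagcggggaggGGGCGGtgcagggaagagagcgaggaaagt

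Promoters were matched for 34 of the 43 members (37 windows). The CCAAT motif was in 12 of those windows (32.4%), against 33.8% of all 32851 windows of that length. TATAAA was in 4 of them (10.8%), against 12.4% of all. GGGCGG was in 22 (59.5%), against 32.7% of all. Col1a2 holds CCAAT at position -109 and GGGCGG at -205 and -188, counted from the start site to the motif's first base. Col3a1 holds TATAAA at -117 and neither of the other motifs. Col5a1 holds GGGCGG at -73 and, on the other strand, at -205, while Col4a5 holds CCAAT at -196 and GGGCGG at -30. The 3 fibrillar genes shown thus share none of these motifs across all of them. A match describes letters in a window and nothing more.

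Levels are given as FPKM, which is fragments per kilobase of transcript and per M mapped fragments (M, mega), in the authors' estimate. Between 3247 and 9194 genes reached 1 FPKM in a library, the lowest being the GFP-negative replicate 1 library. From the spacing of the smallest values, depth was estimated at 27.5 to 41.8 M fragments per library. On that scale the lowest collagen values, 13 of them, came out at 0.947 to 1.23 fragments, so they are taken as single fragments. A PCR fragment is not an independent molecule. A listed 0 may stand for an estimate that failed: of 16 widely used housekeeping genes, GFP-negative replicates 1 and 2 each had 3 listed at 0, and the other 4 libraries had none. For this reason levels are given library by library. The basal keratin genes Krt5 and Krt14 stood at 369 FPKM or more in all 6 libraries. Trp63, the basal transcription factor, stood at 0.459 FPKM in GFP-negative replicate 1 and at 30.8 or more in the other 5.

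Of the 43 members, 14 were listed at 0 in all 6 libraries (32.6%, against 40.1% of all genes): the fibrillar genes Col2a1, Col11a1, Col11a2 and Col24a1, the type IV genes Col4a3 and Col4a4, and Col8a2, Col9a3, Col10a1, Col13a1, Col19a1, Col22a1, Col26a1 and Col28a1. Several of these belong to cartilage (Col2a1, Col9a3, Col10a1, Col11a1) or to the glomerular basement membrane (Col4a3, Col4a4). Another 6 members (Col27a1, Col6a4, Col6a5, Col6a6, Col9a1 and Col9a2) never exceeded the equivalent of 5 fragments. The other 23 did, and 16 members reached 1 FPKM in at least 1 library. The GFP-negative replicate 3 library held most members, with 22 above 0. GFP-negative replicates 1 and 2 held 10 and 11, and the GFP-positive libraries 8, 8 and 11. As a share of the set these were 23.3%, 25.6% and 51.2% for the GFP-negative libraries and 18.6%, 18.6% and 25.6% for the GFP-positive ones, where the share of all genes above 0 was 26.7%, 37.1% and 46.0% against 46.0%, 47.9% and 39.4%. Each GFP-positive library thus held more genes of all kinds than GFP-negative replicates 1 and 2 did, with about as many or fewer collagen genes.

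**Figure D1:**
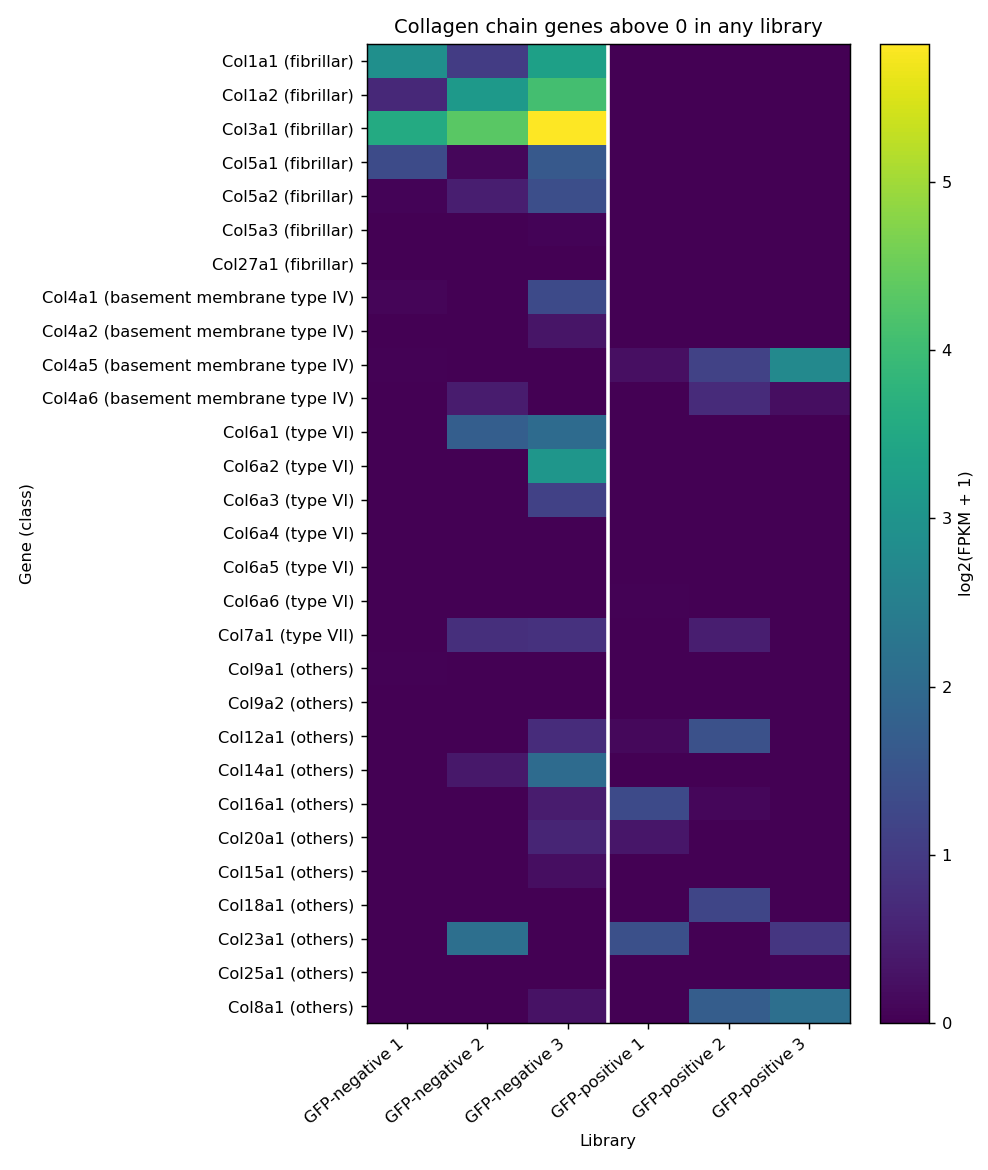
Level of the 29 collagen genes above 0 in any library, as log2(FPKM + 1) (colour), by gene (rows, with class) and library (columns). The fibrillar genes at the top are seen in the 3 GFP-negative columns, and Col4a5 and Col8a1 are highest in GFP-positive columns.

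Of the 5 classes, the fibrillar one had the largest gap between groups in summed FPKM. Its 11 members summed to 19.3, 28.7 and 84.0 FPKM in GFP-negative replicates 1 to 3. In the GFP-positive libraries the sum was 0, 0 and 0.017 FPKM. It made up 99.4%, 80.2% and 81.5% of all collagen FPKM in the GFP-negative libraries and at most 0.166% in the GFP-positive ones. No fibrillar gene was above 0 in GFP-positive replicates 1 and 2, and in replicate 3 the 3 that were (Col1a1, Col3a1 and Col27a1) each rested on about 1 fragment. In bulk libraries fewer cells of a type and less RNA per cell cannot be told apart.

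Col3a1 encodes the single chain of type III collagen, the fine reticular fibril of loose connective tissue, and was the most abundant member in every GFP-negative library. It stood at 10.8, 19.3 and 55.5 FPKM there, worth about 1742, 4484 and 12319 fragments. In the GFP-positive libraries it was listed at 0, 0 and 0.0058 FPKM. The groups do not overlap, and the lowest GFP-negative value lay far above the single fragment of the GFP-positive group. Its share of the collagen FPKM was 55.4%, 53.8% and 53.8% in the GFP-negative libraries, nearly level although their sums differed.

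Col1a1 and Col1a2 encode the chains of type I collagen, the main fibril of skin, tendon and submucosa. Col1a1 stood at 6.45, 1.05 and 8.89 FPKM in the GFP-negative libraries, against 0, 0 and 0.0069 FPKM in the GFP-positive ones. Col1a2 stood at 0.581, 7.93 and 15.9 FPKM and was listed at 0 in all 3 GFP-positive libraries. Neither gene's groups overlap. The balance of the pair varied between libraries: the ratio of Col1a1 to Col1a2 FPKM was 11.1, 0.133 and 0.560 in GFP-negative replicates 1 to 3, although the chains are used together in 1 trimer. The ratio of Col3a1 to Col1a1 was 1.67, 18.3 and 6.25.

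Col5a1 and Col5a2 encode chains of type V collagen, which lies inside type I fibrils and limits their width. Col5a1 stood at 1.503, 0.071 and 2.10 FPKM in the GFP-negative libraries and was listed at 0 in the 3 GFP-positive ones. Col5a2 stood at 0.036, 0.405 and 1.62 FPKM, again against 0 in all 3. Both sets of 3 lie apart, but the lowest GFP-negative values, worth about 25.0 fragments for Col5a1 and 6.87 for Col5a2, are close to the limit of detection. Of the other fibrillar genes, Col5a3 was seen in GFP-negative replicate 3 only (0.036 FPKM) and Col27a1 in GFP-positive replicate 3 only (0.0042 FPKM).

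**Figure D2:**
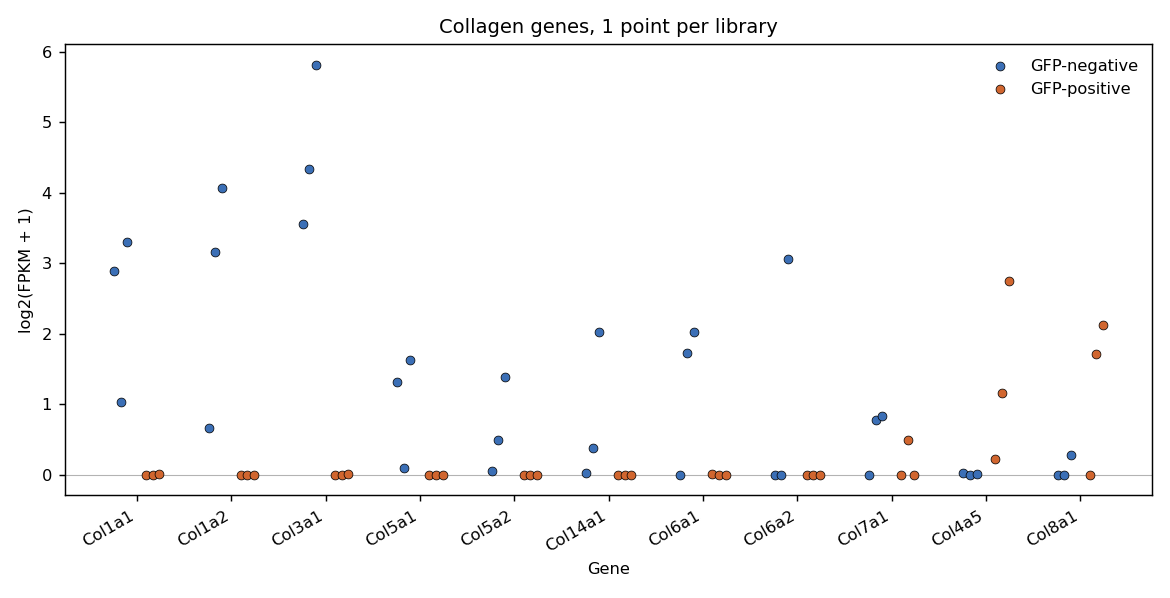
Level of 11 collagen genes as log2(FPKM + 1), 1 point per library, with GFP-negative libraries in blue and GFP-positive ones in orange. Col1a1, Col1a2, Col3a1, Col5a1, Col5a2 and Col14a1 lie above 0 in all 3 blue points, and Col4a5 in all 3 orange points.

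Type IV chains, taken as a class, overlapped between the groups. Summed over 6 genes they reached 0.077, 0.372 and 1.73 FPKM in the GFP-negative libraries and 0.173, 1.88 and 5.86 FPKM in the GFP-positive ones. Col4a1 and Col4a2, which encode the chains of the network found in most basement membranes, were listed at 0 in every GFP-positive library. In the GFP-negative libraries Col4a1 stood at 0.061, 0 and 1.46 FPKM and Col4a2 at 0, 0.0036 and 0.255 FPKM, so that replicate 3 held nearly all of both. The RefSeq start sites of this pair lie 21 bases apart on opposite strands, and the genes overlap between them. The kit does not mark strand, so reads there cannot be assigned by strand.

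Col4a5 and Col4a6, which neighbour each other on chromosome X with start sites 1343 bases apart, encode chains that pair in the basement membrane of skin and some other epithelia. Col4a5 stood at 0.173, 1.23 and 5.71 FPKM in the GFP-positive libraries, worth about 31.2, 274 and 1123 fragments. In the GFP-negative libraries it stood at 0.016, 0 and 0.0077 FPKM, or about 3.04, 0 and 2.02 fragments. The groups do not overlap, and Col4a5 was the only member of the 43 higher in this way. For Col4a6 the groups overlap: it stood at 0, 0.652 and 0.155 FPKM in the GFP-positive libraries and at 0, 0.369 and 0.015 FPKM in the GFP-negative ones.

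Type VI chains were seen almost only in GFP-negative replicates 2 and 3. The 6 genes summed to 0.0036, 2.33 and 11.6 FPKM in the GFP-negative libraries and to 0.027, 0.0038 and 0 FPKM in the GFP-positive ones. Col6a1 stood at 0, 2.33 and 3.08 FPKM in the GFP-negative libraries, against 0.0090, 0 and 0. Its neighbour Col6a2 stood at 7.34 FPKM in GFP-negative replicate 3 and was listed at 0 in the other 5 libraries. Col6a3, which completes the main type VI trimer with these chains, stood at 1.19 FPKM in that same library and at 0 elsewhere. All 3 chains were therefore found together in 1 library only. Col6a4, Col6a5 and Col6a6 never passed 0.018 FPKM.

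Col7a1, the anchoring fibril gene that both keratinocytes and fibroblasts use, showed no separation. It stood at 0, 0.722 and 0.780 FPKM in the GFP-negative libraries, against 0, 0.413 and 0.0035 FPKM in the GFP-positive group. The groups overlap, with both replicate 1 libraries at 0.

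Among the 19 other chains, 11 were above 0 somewhere, and they summed to 0.038, 3.66 and 4.99 FPKM in the GFP-negative libraries and 3.53, 5.39 and 4.30 FPKM in the GFP-positive ones. Col14a1, a fibril-associated collagen of connective tissue, stood at 0.016, 0.305 and 3.07 FPKM against a listed 0 in the 3 GFP-positive libraries. Its lowest value rested on about 2.95 fragments. Col12a1, a related chain, went across the groups, at 0, 0 and 0.678 FPKM against 0.092, 1.71 and 0. Col16a1, a fibril-associated chain, stood at 0, 0 and 0.350 FPKM in the GFP-negative libraries and 1.47, 0.066 and 0.0062 FPKM in the GFP-positive ones.

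Col8a1, a network-forming chain of vessels and specialised basement membranes, stood at 0, 2.28 and 3.35 FPKM in the GFP-positive libraries and at 0, 0 and 0.212 FPKM in the GFP-negative ones. The groups share the value 0, so they overlap. Col23a1, a transmembrane collagen, was at 1.67, 0 and 0.890 FPKM in the GFP-positive libraries and at 0, 3.36 and 0.0043 FPKM in the GFP-negative ones. Col18a1, the source of endostatin, was seen in GFP-positive replicate 2 only, at 1.34 FPKM. Col20a1, Col15a1 and Col25a1 stayed at or below 0.508 FPKM in every library. The member with the highest level in a GFP-positive library was Col23a1 in replicate 1, Col8a1 in replicate 2 and Col4a5 in replicate 3, whereas Col3a1 led in all 3 GFP-negative libraries.

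Chromosomal neighbours gave 8 adjacent pairs of members in the RefSeq order of protein-coding genes (GRCm38.p6). Both genes of the pair Col3a1 and Col5a2 were above 0 in all GFP-negative libraries. Col6a1 and Col6a2 shared only GFP-negative replicate 3, and Col4a1 and Col4a2 were both highest there. Col4a3 and Col4a4 were at 0 throughout, and Col4a5 and Col4a6 differed as given above. In the remaining pairs, Col9a1 with Col19a1 and the Col6a4, Col6a5, Col6a6 row, no value passed the equivalent of 5 fragments.

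Across the set, 6 members (5 fibrillar genes and Col14a1) lay lower in the GFP-positive libraries with no overlap between groups, against 1.78% of the 14385 genes above 0 in any library. The 1 member that lay higher, Col4a5, compares with 7.39% of genes. Of the 29 members above 0 somewhere, 11 were above 0 in GFP-negative libraries only and 5 in GFP-positive libraries only, against 8.27% and 13.2% of genes. In 18 of the 29 the mean difference (GFP-positive minus GFP-negative) in log2(FPKM + 1) was below 0, against 32.8% of genes. The median over those 29 was -0.02, since most are near 0, against 0.28 over the 14385 genes. The members were not drawn independently of each other, and no test is attached to these counts.

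Groups that do not overlap in all 6 libraries cannot overlap in fewer, so the same 6 members stayed apart in all 9 settings by construction. When libraries were left out, the counts and the shares over all genes could only stay level or rise. Without GFP-negative replicate 1, the library with few genes, 9 members were lower without overlap, the further 3 being Col4a2, Col6a1 and Col7a1, and the share of all genes was 7.13%. Without both replicate 1 libraries the count was also 9, against 10.2% of genes. Leaving out GFP-negative replicate 2, alone or with GFP-positive replicate 2, gave 7, with Col4a1 added, against 4.77% and 7.55% of genes. Col4a5 likewise stayed apart in each of the 9 settings by construction. Col8a1 joined it without GFP-positive replicate 1 (2 members, against 14% of genes) and without both replicate 1 libraries (against 16.4%), and Col16a1 joined it without GFP-negative replicate 3 (2 members, against 16.2%). Leaving out both replicate 3 libraries gave 3 such members, which added Col12a1 and Col16a1, against 27.1% of genes, and leaving out both replicate 2 libraries gave 2, which added Col23a1, against 18.1%.

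The replicated test was limma on log2(FPKM + 1) over the 9423 genes averaging 1 FPKM or more, which only 5 members did: Col1a1, Col1a2, Col3a1, Col4a5 and Col6a2. The other 38 were too low. With an adjusted p below 0.05 as the threshold, limma called 0 of the 5 and 0% of all genes, the smallest adjusted p of any gene being 0.40. At an unadjusted p below 0.05, limma had 3 of the 5 lower (Col1a1, Col1a2 and Col3a1), against 0.743% of genes lower, and none higher, against 3.18%. A member that is high in 1 group only passes the mean filter because of that group, so these counts are given as a description. Over all tested genes the split was 70 lower and 300 higher, and with quantile normalization 178 lower and 121 higher. The median difference of all tested genes was 0.63, or 0.04 with quantile normalization, 0.43 with median-of-ratios scaling and 0.85 with upper-quartile scaling, so that a gene at 0 lies below the typical gene.

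Col3a1 differed by -4.57 (SE 1.11, 95% CI -7.01 to -2.13, limma unadjusted p = 0.0016, adjusted p = 0.79). It kept an unadjusted p below 0.05 in all 18 alternatives, with differences from -7.80 to -2.51 and limma adjusted p from 0.027 to 0.97. The 1 setting below the threshold was limma with library weights, which called 0.0849% of genes. Col1a2 differed by -2.63 (SE 1.08, 95% CI -4.99 to -0.27, limma adjusted p = 0.79) and Col1a1 by -2.41 (SE 0.96, 95% CI -4.52 to -0.30, limma adjusted p = 0.79). Both missed an unadjusted p of 0.05 in 8 of 17 alternatives, among them each of the 3 that left out 1 GFP-positive library.

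Col6a2 differed by -1.02 (SE 0.93, 95% CI -3.05 to 1.01, limma adjusted p = 0.79), a value that rests on GFP-negative replicate 3. With library weights it was -2.40 (95% CI -4.22 to -0.58, limma unadjusted p = 0.014, adjusted p = 0.46), which made 4 members lower at an unadjusted p below 0.05, where 348 of the 9423 genes were. Col4a5 differed by 1.37 (SE 0.86, 95% CI -0.52 to 3.25, limma adjusted p = 0.79), and with quantile normalization by 0.03. With equal weights the intervals of Col6a2 and Col4a5 both include 0. When the filter was dropped, 29 members entered the fit. Limma then had Col1a1 and Col3a1 lower at an unadjusted p below 0.05, against 0.619% of genes, with none higher, against 3.36%, and the smallest limma adjusted p among members was 0.75.

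**Figure D3:**
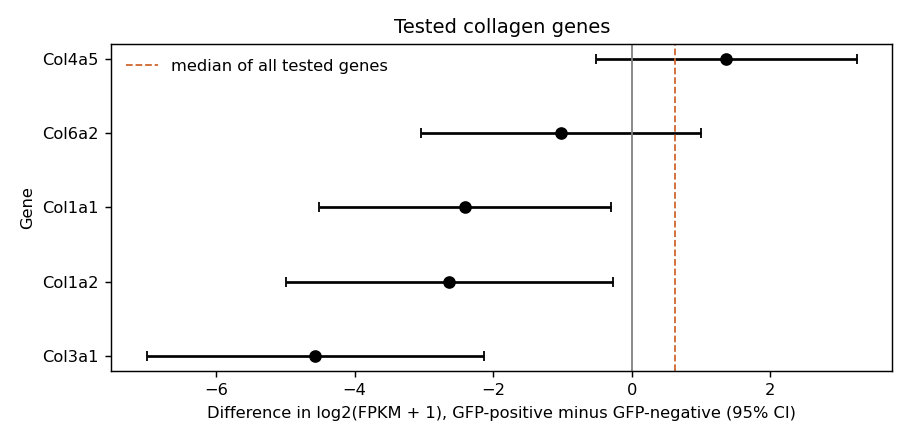
Difference in log2(FPKM + 1) between GFP-positive and GFP-negative libraries for the 5 tested collagen genes (points) with 95% confidence intervals from limma (bars). The intervals of Col1a1, Col1a2 and Col3a1 lie below 0 and below the median of all tested genes (dashed line, 0.63), before adjustment for the number of genes tested.

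Genes that build, process and bind collagen lay, as lists, near the other genes or had few tested members. Of 31 genes of collagen hydroxylation, folding, cleavage and crosslinking (5 matched through a RefSeq synonym), 17 were tested and 0 passed limma's adjusted threshold, with 1 higher and 0 lower at an unadjusted p below 0.05, against 3.18% and 0.743% of tested genes. Their median difference was 0.61, close to that of all tested genes. Ppib (cyclophilin B, a proline isomerase of collagen folding) was the most abundant, at 15.7, 482 and 500 FPKM in the GFP-negative libraries and 453, 453 and 613 FPKM in the GFP-positive ones. Crtap, a partner of prolyl 3-hydroxylase, stood at 0.167, 0.014 and 14.3 FPKM against 21.6, 22.2 and 30.3, which gave a log2 difference of 3.28 (SE 1.30, limma adjusted p = 0.79). P4ha1, a subunit of prolyl 4-hydroxylase, stood at 0, 0 and 4.55 FPKM against 5.18, 6.85 and 10.8. The procollagen N-proteinase gene Adamts2 was the exception in direction among the genes whose groups do not overlap, at 11.1, 0.524 and 0.292 FPKM against a listed 0 in the 3 GFP-positive libraries. Creb3l1, a transcription factor of collagen secretion, stood at 0, 4.31 and 5.90 FPKM against 1.86, 0 and 0, and Pcolce2, an enhancer of procollagen cleavage, at 0, 0 and 16.1 FPKM against 0.040, 0 and 0. The crosslinking enzyme gene Lox was listed at 0 in all 6 libraries.

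Of 10 collagen receptor genes, 3 were tested and none passed limma's adjusted threshold or an unadjusted p of 0.05. Itgb1, the shared chain of the collagen-binding integrins and the CD29 of the sort, stood at 1.03, 20.7 and 16.7 FPKM against 23.4, 43.3 and 10.8. Ddr1, the discoidin receptor of epithelia, stood at 1.61, 0.922 and 3.55 FPKM in the GFP-negative libraries, against 8.18, 5.06 and 15.0 FPKM in the GFP-positive ones. Its groups do not overlap (difference 1.76, SE 1.10 on the log2 scale, limma adjusted p = 0.79). Ddr1 was the 1 receptor gene of the 10 higher in this way, against 7.39% of genes above 0 in any library. Ddr2, the discoidin receptor of mesenchymal cells, reached 0.0999 FPKM in GFP-negative replicate 3 and was at 0 in the other libraries. Mrc2, an endocytic collagen receptor, stood at 9.94, 0 and 0.313 FPKM against 0 in all 3.

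Of 9 genes of collagen breakdown and its inhibitors, 5 were tested and none passed at either level in limma. Mmp2, a gelatinase, stood at 0.011, 35.5 and 26.2 FPKM against 4.33, 18.1 and 65.5, with overlap. Timp2, an inhibitor of such proteases, stood at 0.426, 17.003 and 34.9 FPKM against 4.63, 3.88 and 0.0090 (difference -1.69, limma adjusted p = 0.79). The inhibitor genes Timp3 and Timp1 differed by -0.22 and -0.10.

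Basement membrane partners of type IV collagen went both ways, with 5 of 14 tested and none past limma's adjusted threshold or an unadjusted p of 0.05. Nid1 (nidogen, which links laminin to type IV collagen) stood at 0.017, 5.79 and 9.003 FPKM in the GFP-negative libraries, against 0, 0 and 0.0053 FPKM in the GFP-positive ones. Lamc1, a laminin chain, stood at 12.2, 4.59 and 2.66 FPKM against 0.515, 1.65 and 0.0042. Nid1 and Lamc1 both lay lower in the GFP-positive libraries without overlap. Agrn (agrin, a basement membrane proteoglycan) stood at 0, 3.83 and 1.19 FPKM against 5.64, 5.22 and 8.63, and lay higher without overlap, as did Lama5, a laminin chain of epithelia, at 0, 0.601 and 0.0021 FPKM against 1.54, 0.951 and 2.17. Among the 14, 2 thus lay lower and 2 higher without overlap, against 1.78% and 7.39% of the 14385 genes above 0 in any library. Lamb2, another laminin chain, and Sparc, a collagen-binding matrix protein, differed by 0.96 and 0.34, with overlap.

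Markers of fibroblasts and leukocytes also differed between the groups in level, without passing limma's adjusted threshold. Of 16 fibroblast markers that are not collagens, 14 were tested, 13 had a difference below 0 (median -2.12), where 2956 of the 9423 tested genes did. Limma had 7 of the 14 lower at an unadjusted p below 0.05, against 0.743% of tested genes, and 0 at the adjusted threshold. As with the collagens, a marker high in 1 group only passes the mean filter because of that group. These counts are therefore given as a description. The 16 markers summed to 397 to 1172 FPKM in the GFP-negative libraries and 165 to 348 FPKM in the GFP-positive ones. That figure was dominated by Dcn (decorin) and Gsn (gelsolin). Dcn stood at 13.9, 267 and 457 FPKM in the GFP-negative libraries, against 167, 176 and 71.1 FPKM in the GFP-positive ones. Its groups overlap, and it differed by 0.07. Gsn stood at 210.5, 277 and 384 FPKM against 22.6, 141 and 92.3, with no overlap. Mfap5, a microfibril gene, Dpt (dermatopontin, which binds collagen fibrils) and Vim (vimentin) had the smallest p, with differences of -5.86, -5.13 and -4.86 (limma adjusted p = 0.58, 0.73 and 0.79). The fibroblast receptor genes Pdgfra and Pdgfrb were listed at 0 in all libraries but GFP-negative replicate 3, where they stood at 1.57 and 0.868 FPKM, and Lum was at 63.8 FPKM in that library, 2.55 in GFP-negative replicate 1 and 0 elsewhere. That library was also the one with most collagen genes, including all 3 main type VI chains. Of the GFP-negative libraries it held most genes of any kind as well, with 11041 above 0, against 6411 and 8905 in replicates 1 and 2. The part of fibroblasts in the collagen values was not tested.

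Leukocyte markers, 7 genes, summed to 92.7 to 282 FPKM in the GFP-negative libraries and 0.665 to 32.0 FPKM in the GFP-positive ones, with 5 tested, all 5 below 0 and 1 (Tyrobp, a myeloid adaptor) at an unadjusted limma p below 0.05, against the same 0.743%. Fcer1g and Laptm5, other leukocyte genes, differed by -2.85 and -1.75. The limit of the mean filter given for the fibroblast markers holds for these counts too. The part of leukocytes in the collagen values was not tested either. The leukocyte sum was highest in GFP-negative replicate 2 and the fibrillar sum in replicate 3. Endothelial markers were listed at 0 in GFP-negative replicates 1 and 2 and reached 17.1 FPKM in replicate 3. In the GFP-positive libraries they stood at 0, 14.7 and 1.45 FPKM. Of the 10, Cdh5, Tie1, Emcn and Cldn5 were at 0 in all 6 libraries, and the most abundant, Esam, differed by 0.32. Pecam1, Kdr and Tek were above 0 in GFP-negative replicate 3 only, at 3.87, 0.162 and 0.016 FPKM. Egfl7 and Plvap were above 0 in GFP-positive libraries only. Egfl7 stood at 4.50 FPKM in replicate 2 and 0.031 in replicate 3, and Plvap at 0.015 in replicate 2. Of the 11 smooth muscle and pericyte markers, Myh11, Cnn1, Actg2, Lmod1 and Rgs5 were at 0 throughout, and the sum stayed at or below 11.3 FPKM in every library. Acta2, its most abundant gene, differed by 1.29. Of the Schwann cell markers, Sox10 and S100b were at 0 in all libraries, and Mbp, the most abundant, differed by 0.96. Skeletal muscle markers came mainly from Tnni2 and Mylpf (differences 1.77 and 0.30), with the myosin genes Myh1, Myh2 and Myh4 at or below 0.011 FPKM in all libraries. The part of endothelial, smooth muscle, Schwann and skeletal muscle cells in the collagen values was not tested. The 7 basal keratinocyte markers were above 0 in all 6 libraries, with a median difference of 0.18. Among them Trp63, Itgb1 and Itga6 differed by 2.11, 1.34 and 1.32, and Itgb4 by -0.07, none at an unadjusted limma p below 0.05. Krt15, whose promoter drives the Cre, was the most abundant of the 7. Its level was 2350.2, 6783.8 and 3411.8 FPKM in the GFP-negative libraries, against 3349.8, 9692.5 and 2419.5 FPKM in the GFP-positive ones. The groups thus overlap in Krt15 RNA (difference 0.18, SE 0.48, limma adjusted p = 0.93).

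**Figure D4:**
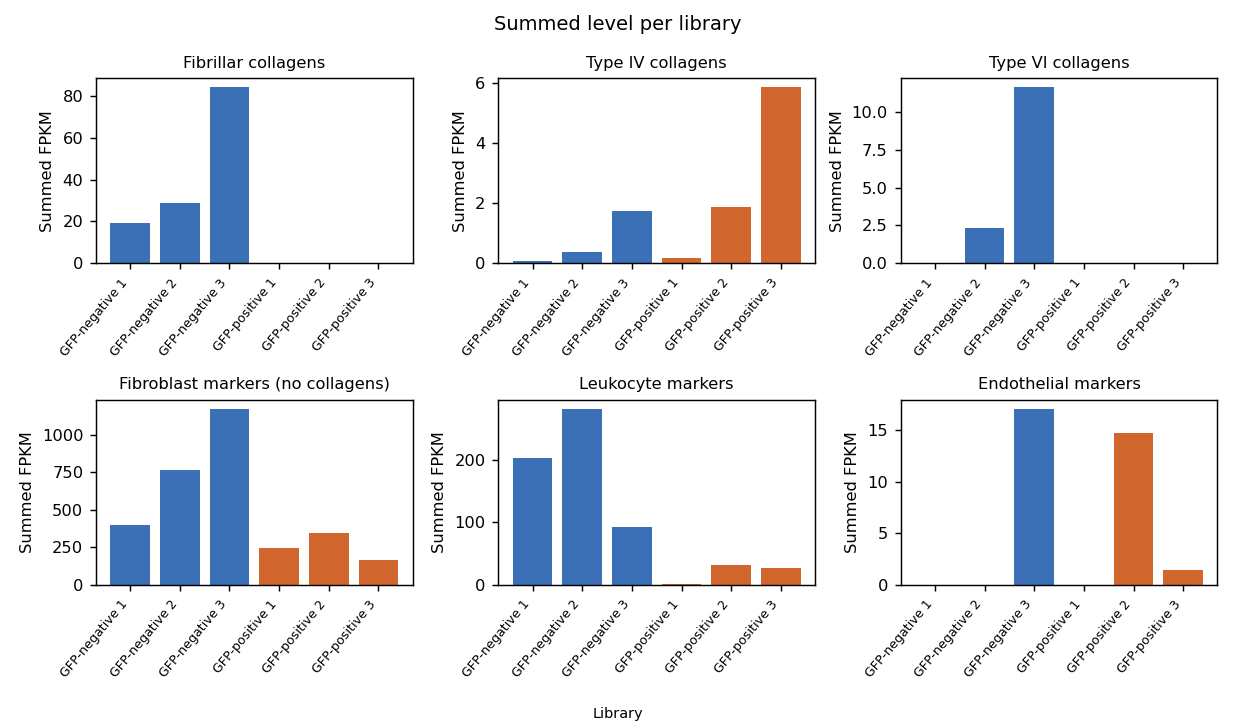
Summed FPKM per library (bars; GFP-negative in blue, GFP-positive in orange) for 3 collagen classes (upper row) and 3 lists of cell type markers (lower row), each panel with its own axis from 0. Fibrillar collagens summed to 19.3 FPKM or more in each GFP-negative library and to at most 0.017 in the GFP-positive ones. The fibroblast marker sum was 397 FPKM or more in the GFP-negative libraries and at most 348 FPKM in the GFP-positive ones. That sum was dominated by Gsn, whose groups do not overlap, and by Dcn, whose groups do.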

How the data were processed

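RNA was profiled in 6 libraries of sorted esophageal basal cells, 3 per group. SMART-Seq v4 chemistry, which does not mark strand, was applied to whole cells with no RNA extraction, per the labels' protocols. The deposited table gives the authors' FPKM, 1 column per library. The file name calls them counts, but they are not whole and scale with transcript length. Cufflinks 2.2.1, STAR 2.5, DESeq2 and the mm9 build are named, without their roles, per the submitters' processing notes (annotation and filters not given in the sources used here).

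Of 24043 rows, 27 symbols turned into dates were left out. Genes averaging 1 FPKM or more over the 6 libraries were tested as log2(FPKM + 1) in limma 3.58.1 (R 4.3.3) with a mean-variance trend and group as the only term, 2-sided, with Benjamini-Hochberg adjustment over all 9423. Fold changes on this scale understate low genes. The code was tested on simulated data. Depth was estimated from the smallest values of 2172 genes with 1 GENCODE transcript of at least 1500 bp, and fragment equivalents use the longest transcript. Promoters and gene order come from RefSeq (GRCm38.p6), and no coordinates of the data themselves were used.

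The members and lists were chosen with earlier results of these data known. Values in every library are given for members with a mean of at least 1 FPKM and for Col1a1, Col1a2, Col3a1, Col4a1 to Col4a6, Col6a1 to Col6a3 and Col7a1. Further members, Lama5, Ddr2, Pdgfra, Pdgfrb, Lum, Gsn, Pecam1, Kdr, Tek, Egfl7 and Plvap were named after their values were seen. From each other list the rule took up to 3 tested genes of smallest p on each side and the one of highest mean. The 16 housekeeping genes were listed after the data were seen.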

Additional observations from a re-analysis of the deposited data

How the results depend on the processing

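The 5 collagen genes tested kept their direction in all settings in which they passed the filter. Leaving out libraries could not have reversed it. The groups of Col1a1, Col1a2, Col3a1 and Col4a5 do not overlap, and Col6a2 was above 0 in 1 library only. Col6a2 left the fit without GFP-negative replicate 3, and Col4a5 left it without GFP-positive replicate 3. Below the filter, where the difference is given with no test, that of Col23a1 (0.07) was -0.61 to 1.17 and that of Col4a6 (0.15) was -0.05 without GFP-positive replicate 2. With library weights 1 collagen gene (Col3a1) and 8 genes in all passed the adjusted threshold, against 0 and 0. Leaving out libraries kept the first count at 0 and gave 0 to 1 genes in all, the 1 being seen without GFP-negative replicate 2. The count of collagen genes lower at an unadjusted p, 3, was 1 with a mean of at least 5 FPKM and 1 to 2 when libraries were left out. It was 1 without GFP-negative replicate 3, without each of the GFP-positive libraries and without both replicate 2 or both replicate 3 libraries, and the 1 was Col3a1. The count higher was 0 in every setting run. The median difference of the tested members, -2.41, was -5.32 with a pseudocount of 0.1, -0.98 with a pseudocount of 5, -0.017 without the filter (29 members), -4.57 with a mean of at least 5 FPKM (1 member), and -2.37 to -1.10 when libraries were left out, where the set of members past the filter also changes. Members whose groups do not overlap, an alternative added after seeing the data, numbered 6 to 9 lower and 1 to 3 higher when libraries were left out, against 6 and 1. The share over all genes went from 1.78% to between 2.74% and 10.2% lower and from 7.39% to between 8.93% and 27.1% higher. Neither the counts nor the shares could have fallen, since groups apart in all libraries stay apart in fewer.

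Over all genes, the 70 lower at an unadjusted p were 42 with upper-quartile scaling, 43 with a mean of at least 5 FPKM, 348 with library weights and 178 with quantile normalization, and 23 to 157 when libraries were left out. The 300 higher were 80, 121, 483 and 495 with a mean of at least 5 FPKM, quantile normalization, no filter and library weights, and 48 to 935 when libraries were left out. With the replicate number as a replicate block, 0 collagen genes passed the adjusted threshold, 3 were lower at an unadjusted p, the median was -2.41, and all genes gave 142 lower and 337 higher. Same-numbered libraries share a replicate number and a sample identifier in the labels, which do not say whether these mark 1 mouse. Deviations from the group means correlated at 0.128, 0.168 and 0.009 for same-numbered pairs. GFP-negative replicates 1 and 2 correlated best with their own number and replicate 3 with another (0.029). Correlations this small cannot decide whether the numbers are pairs. The main fit did not take them as pairs, and the replicate block gives the other reading. Values worth a few fragments, such as the lowest ones of Col5a2, Col14a1 and Col4a5, are at the limit of depth.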
